A study of Mus musculus with 6 samples.

Results

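Receptors that guide macrophages along chemical gradients were followed in cultured mouse macrophages exposed to the chemokine CCL3. The group was chosen by gene symbol from the deposited expression table and holds 9 genes of 54532 in the table: the chemokine receptor genes Ccr2, Ccr7, Cx3cr1 and Cxcr4, the chemokine receptor-like gene Ccrl2, the complement receptor genes C5ar1 and C3ar1, and the formyl peptide receptor genes Fpr1 and Fpr2. All 9 were found, each in 1 record. The last 4 encode chemoattractant receptors outside the chemokine receptor family proper, and the product of Ccrl2 is an atypical member that is known to bind chemerin without coupling to G proteins.

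The libraries fell into CCL3-treated macrophages (3 libraries) and control macrophages (3 libraries), all macrophages grown in culture from the bone marrow of C57BL/6J, an inbred mouse strain. Treated cells had matured for 7 days and then received recombinant CCL3 for 3 days. Whether CCL3 was also added from the start is not clear from the design text, and the sources used here do not say how control cells were kept. They do not name separate animals or cultures for the libraries either, so the p-values cover spread among these samples that could be purely technical.

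Chemoattractant receptors are membrane proteins that mostly signal through the Gi class of G proteins and turn an outside gradient into directed movement. CCR1, a receptor of CCL3 itself, does not belong to the 9. In the monocyte and macrophage lineage, CCR2 is known for release of monocytes from bone marrow toward CCL2, CX3CR1 for adhesion to fractalkine and for marking patrolling monocytes and many tissue macrophages, CXCR4 for retention by CXCL12, and CCR7 for migration of activated dendritic cells to lymph nodes. C5aR1 and C3aR bind the complement fragments C5a and C3a, and the formyl peptide receptors bind bacterial and mitochondrial peptides.

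Levels are FPKM, fragments per kilobase of gene length, scaled by a library divisor that the authors set. Fragments recovered from these values summed to between 17399194 and 18609737 per library. The labelled cell type matched its markers: 12 of 12 macrophage genes passed the filter on low values, among them Csf1r at 559 to 873 FPKM with CCL3 and 663 to 922 FPKM in control. The levels of these markers were not the same in both groups. Their sum was 17674 to 21166 FPKM with CCL3 and 21649 to 32465 FPKM in control, and the genes that differed are named further below. The 9218 genes whose mean reached 1 FPKM were tested with limma on log2(FPKM + 1), and a call means a Benjamini-Hochberg adjusted p under 0.05 over all genes tested. The second principal component, with 17.2% of the variance, set control replicate 3 (25.4) away from control replicates 1 and 2 (-11.5 and -2.90), and CCL3 replicate 2 (-21.1) away from CCL3 replicates 1 and 3 (1.246 and 8.93). On the first, with 65.6% of the variance, CCL3 replicate 3 (-40.5) lay beyond CCL3 replicates 1 and 2 (-20.9 and -21.4). The median log2 fold change over every tested gene was 0.0066 as deposited, -0.48 with TPM and -0.28 with plain fragment totals, so values under those scalings are to be read against that shift.

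The promoter windows of the 4 most abundant receptor genes are shown first, since these genes supplied nearly all of the receptor transcripts measured. Each window runs from 250 bases before to 50 bases after the annotated start in RefSeq (GRCm38.p6), written 5′ to 3′ on the strand of the gene. Capitals mark matches, on either strand, to 7 motifs. The first is GAGGAAGT, a form of the PU.1 site, and the second is the shorter AGGAAG core that many ETS factors bind. The letters TGANTCA stand for AP-1 and TTGCNNAA for C/EBP. TATAAA is the TATA box, and the interferon-stimulated response element and an NF-kappaB form complete the set. PU.1 sites contain the ETS core, so these motifs overlap. The windows are chr9:120068247-120068546 on the minus strand for Cx3cr1, chr1:128592250-128592549 on the minus strand for Cxcr4, chr7:16259289-16259588 on the minus strand for C5ar1 and chr6:122856108-122856407 on the minus strand for C3ar1.
Cx3cr1: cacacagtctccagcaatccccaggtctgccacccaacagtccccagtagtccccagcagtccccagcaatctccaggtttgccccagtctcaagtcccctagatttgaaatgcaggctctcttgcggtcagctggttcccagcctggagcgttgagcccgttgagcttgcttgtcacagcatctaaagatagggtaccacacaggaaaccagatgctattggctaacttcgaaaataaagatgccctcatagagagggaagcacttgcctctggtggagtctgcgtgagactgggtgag
Cxcr4: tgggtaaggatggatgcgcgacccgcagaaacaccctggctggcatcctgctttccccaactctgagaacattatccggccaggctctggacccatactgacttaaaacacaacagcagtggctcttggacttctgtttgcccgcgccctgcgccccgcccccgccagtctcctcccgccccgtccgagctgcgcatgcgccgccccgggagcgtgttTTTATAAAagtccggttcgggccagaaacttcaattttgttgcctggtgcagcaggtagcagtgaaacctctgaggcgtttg
C5ar1: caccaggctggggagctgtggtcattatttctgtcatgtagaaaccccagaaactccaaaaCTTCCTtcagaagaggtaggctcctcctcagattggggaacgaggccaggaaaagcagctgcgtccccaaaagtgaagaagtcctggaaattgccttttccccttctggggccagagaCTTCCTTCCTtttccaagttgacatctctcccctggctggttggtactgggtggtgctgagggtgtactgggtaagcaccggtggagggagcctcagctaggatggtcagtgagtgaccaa
C3ar1: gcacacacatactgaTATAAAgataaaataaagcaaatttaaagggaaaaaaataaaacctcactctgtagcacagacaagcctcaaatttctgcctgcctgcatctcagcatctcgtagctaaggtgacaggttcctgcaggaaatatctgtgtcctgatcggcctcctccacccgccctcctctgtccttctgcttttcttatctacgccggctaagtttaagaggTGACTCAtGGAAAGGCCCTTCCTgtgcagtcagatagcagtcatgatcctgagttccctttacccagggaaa

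The Cx3cr1 window held none of these letters. The Cxcr4 window held TATAAA with its first base 30 bases before the start, overlapped by a match on the other strand, and TATAAA occurs in 13.6% of 32851 promoter windows. The C5ar1 window held 3 matches to AGGAAG, of which the last 2 overlap, against 35.4% of windows with at least 1. The C3ar1 window held TGACTCA 22 bases before the start, next to a match to the NF-kappaB form 14 bases before it that overlaps a further AGGAAG match, and a distant TATAAA, against 7.81% and 1.63% of windows with the AP-1 and NF-kappaB letters. Of the 9 genes 8 had a window in the table, 10 windows in all because Ccrl2 has 3. GAGGAAGT, TTGCNNAA and the interferon-stimulated response element were found in 0 of these 10 windows. Ccr7 is not among the windows. A match is a stretch of letters and not a measured binding site.

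CCL3-treated macrophages had lower Cx3cr1 and higher Ccr7 transcript levels than control macrophages, while the 4 other receptor genes that could be tested did not pass. Ccr7 passed the filter through the CCL3 group alone, where it was high, so its place among the 6 tested genes is not independent of that difference. Of the 6 tested receptor genes 1 rose, against 18.0% of all genes tested, and 1 fell, against 14.5%. These shares lie close to the background of a comparison in which 32.4% of tested genes were called in either direction. The median log2 fold change of the 6 was -0.23, beside 0.01 over all genes tested. The 3 CCL3 libraries lay wholly above or below the 3 control libraries for 2 of the 6, Ccr7 and Cx3cr1, against 48.6% of all genes tested. Fpr1, which stayed under the filter and was not tested, also lay wholly above.

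**Figure D1:**
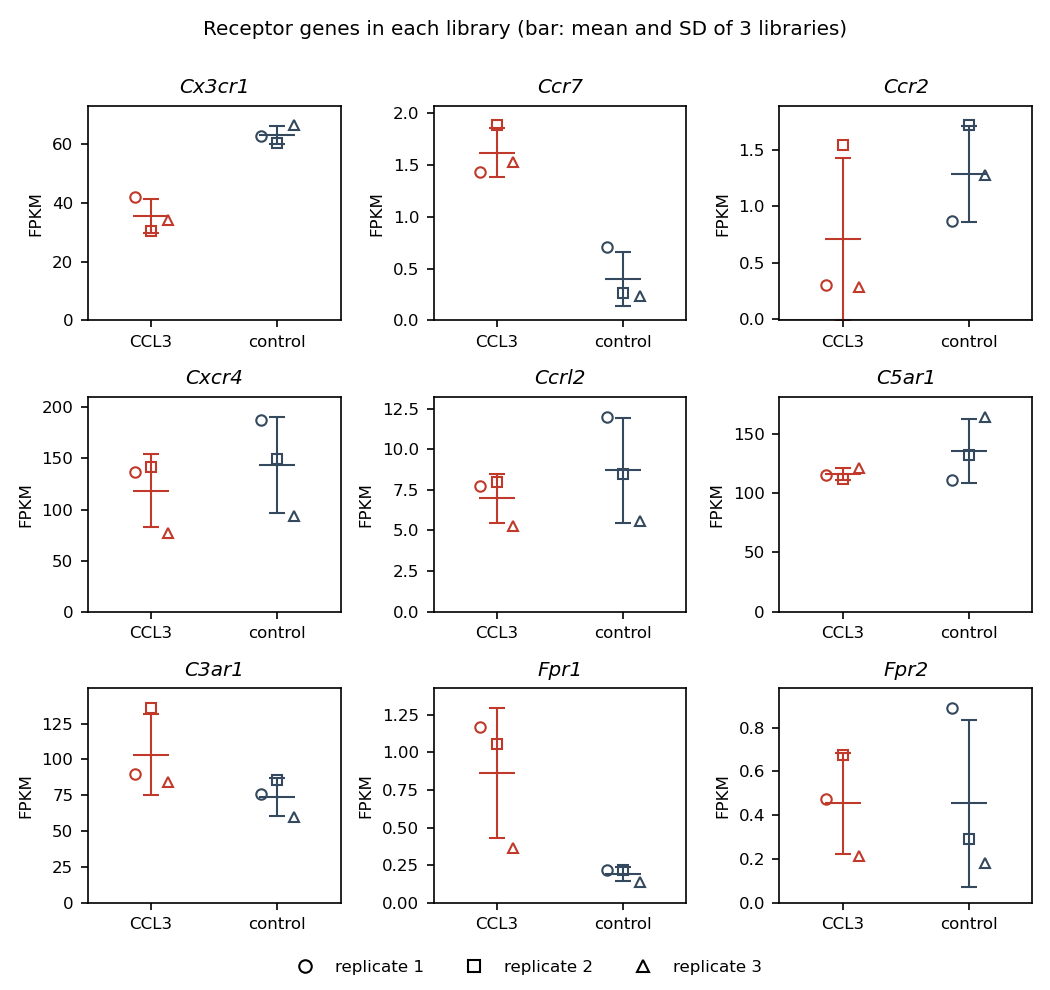
FPKM of the 9 receptor genes (vertical axis, a separate linear scale per gene) in CCL3 libraries (left) and control libraries (right), with each library as a symbol by replicate number and the mean and SD of 3 libraries as a bar. The groups separate for Cx3cr1, Ccr7 and Fpr1 and overlap for the other 6 genes.

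Cx3cr1, the fractalkine receptor gene, is recorded as ENSMUSG00000052336 on chromosome 9, 119901616 to 120069879, minus strand (mm10). It stood at 41.8, 30.5 and 34.0 FPKM in CCL3 replicates 1 to 3 and at 62.5, 60.1 and 66.3 FPKM in control replicates 1 to 3. Every CCL3 library lay below every control library, and the spread within either group was small beside the gap between them. Its mean fell to 35.4 ± 5.79 FPKM with CCL3, against 62.9 ± 3.11 FPKM in control (SD, n = 3 each), a log2 fold change of -0.82 ± 0.15 SE with an adjusted p of 0.00691 (limma). Between 2224 and 3053 fragments with CCL3 and between 5696 and 6377 in control lay behind these values, so counting error is slight. The call held under every scaling run, with log2 fold changes between -1.36 (TPM) and -0.70 (correction for GC content and gene length). In rank among all tested genes Cx3cr1 stood at the 81.3 to 85.1 percentile with CCL3 and at the 91.7 to 92.1 percentile in control, a comparison that no library scaling can change. Its long record also spans other genes, but its exons share 78 of 4505 bases with 1 of them, the antisense gene Gm33858, which had at most 10 fragments in a library.

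Ccr7, the receptor gene for the lymph node chemokines CCL19 and CCL21, changed the other way at a much lower level. It is recorded as ENSMUSG00000037944 on chromosome 11, 99144196 to 99155077, minus strand. Its level was 1.43, 1.88 and 1.53 FPKM in CCL3 replicates 1 to 3 and 0.705, 0.264 and 0.237 FPKM in control replicates 1 to 3. These values rest on 46, 64 and 44 fragments with CCL3 and on 29, 11 and 10 fragments in control. No control library reached the lowest CCL3 library. The mean was 1.62 ± 0.236 FPKM with CCL3 and 0.402 ± 0.263 FPKM in control (SD, n = 3 each), with a log2 fold change of 0.91 ± 0.17 SE and an adjusted p of 0.00783 (limma). At so low a level the pseudocount of 1 compresses the change: the ratio of the group means was 4.02, and the log2 fold change was 1.88 with a pseudocount of 0.1 and 2.15 in limma-voom on the recovered fragments (adjusted p = 0.0122 and 0.00808). Ccr7 passed the filter through the CCL3 group alone, with a mean over all libraries of 1.01 FPKM, just inside the limit. Without any 1 CCL3 library its mean dropped under that limit and it was not tested. In the fit with no filter, over 20404 genes, its adjusted p was 0.0295 (limma).

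Ccr2, the receptor gene for CCL2, fell just outside the filter, with a mean over the 6 libraries of 0.99995 FPKM. It had 0.301, 1.54 and 0.286 FPKM in CCL3 replicates 1 to 3 and 0.868, 1.72 and 1.28 FPKM in control replicates 1 to 3. Of the CCL3 libraries 2 lay below the control libraries, and CCL3 replicate 2 lay among them. On the log2(FPKM + 1) scale the groups differed by -0.48, with an exact two-sided permutation p of 0.3, where 3 libraries against 3 cannot go below 0.1. Summed fragments were 240 with CCL3 and 552 in control. In a fit with no filter the adjusted p of Ccr2 was 0.396 (limma). The record is ENSMUSG00000049103, chromosome 9, 124101950 to 124113557, plus strand.

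Cxcr4, the CXCL12 receptor gene on chromosome 1 (128588199 to 128592293, minus strand), had the highest mean of the 9 genes in both groups. It measured 137, 141 and 77.2 FPKM in CCL3 replicates 1 to 3 and 188, 149 and 93.8 FPKM in control replicates 1 to 3. The lowest value of each group was its replicate 3, and the groups overlapped widely. CCL3 over control gave -0.27 ± 0.31 SE on the log2 scale (limma adjusted p = 0.518). Leaving out CCL3 replicate 3 turned the sign, to 0.0093. Ccrl2 showed the same arrangement of libraries at a lower level, with 7.71, 7.98 and 5.25 FPKM in CCL3 replicates 1 to 3 and 12.02, 8.50 and 5.57 FPKM in control replicates 1 to 3. The difference was -0.24 ± 0.26 SE on the log2 scale (limma adjusted p = 0.491), from 879 fragments summed over the CCL3 libraries and 1423 over the control libraries. For both genes the difference between the groups was smaller than its spread, which leaves changes of moderate size in either direction undetected. Ccrl2 lies on chromosome 9 at 111054486 to 111057519, minus strand.

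The complement receptor genes were abundant in both groups and neither passed. C5ar1 (chromosome 7, 16246743 to 16259540, minus strand) had 115, 112 and 122 FPKM in CCL3 replicates 1 to 3 and 111, 132 and 165 FPKM in control replicates 1 to 3. The CCL3 libraries were close to one another and lay within the range of the more variable control libraries. Its log2 fold change was -0.21 ± 0.17 SE (limma adjusted p = 0.357). C5ar1 was called lower with TPM, plain totals and quantile normalization, at log2 fold changes of -0.74, -0.56 and -0.63 (limma adjusted p = 0.00831, 0.0278 and 0.0161). Relative to the median of all genes these come to -0.26, -0.28 and -0.62. C5ar2, the gene of the second C5a receptor and a neighbour of C5ar1, fell to 1.51 ± 0.608 FPKM with CCL3, against 2.71 ± 0.205 FPKM in control (SD, n = 3 each; log2 fold change -0.59 ± 0.19 SE, limma adjusted p = 0.0447), but not with quantile normalization or the GC and length correction (adjusted p = 0.0928 and 0.0947).

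C3ar1 (chromosome 6, 122847138 to 122856161, minus strand) had 89.8, 136 and 84.4 FPKM in CCL3 replicates 1 to 3 and 76.1, 85.4 and 59.6 FPKM in control replicates 1 to 3. CCL3 replicate 2 was the highest library and control replicate 3 the lowest, and the groups overlapped, with CCL3 replicate 3 just below control replicate 2. The log2 fold change was 0.47 ± 0.22 SE (limma adjusted p = 0.130). It was called higher after correction for GC content and length (0.66, limma adjusted p = 0.0289), while with TPM its log2 fold change was -0.066, which is 0.41 above the median of all genes. With quantile normalization its log2 fold change was 0.055, only 0.069 above that median (limma adjusted p = 0.888).

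**Figure D2:**
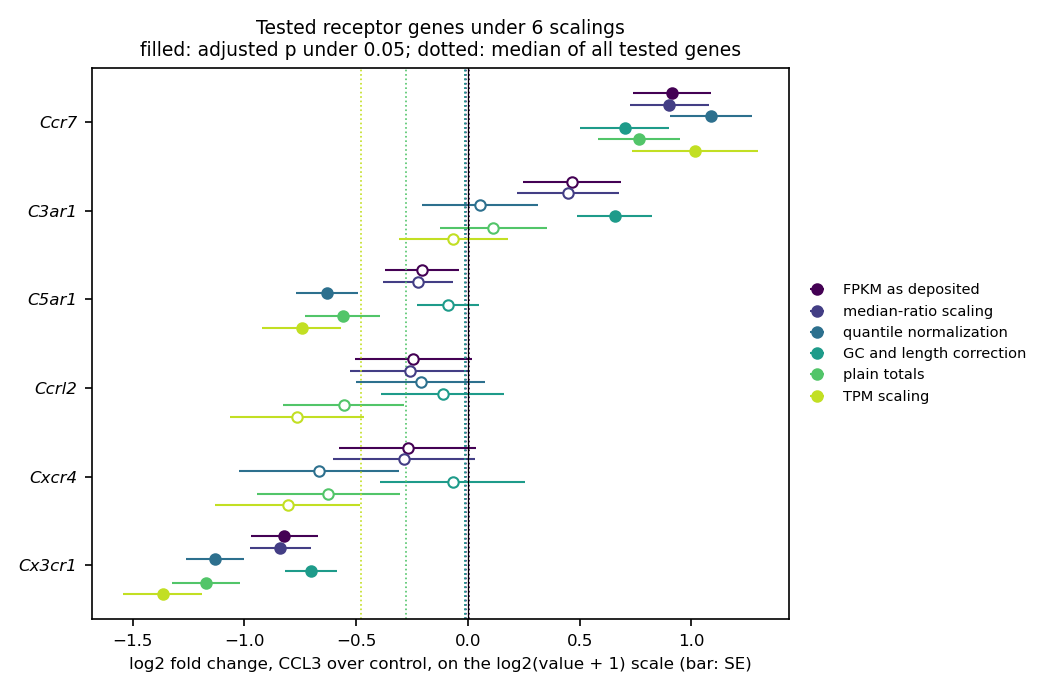
Log2 fold change of CCL3 over control with its SE (horizontal axis, log2(value + 1) scale) for the 6 tested receptor genes under 6 scalings, filled where the limma adjusted p was under 0.05, with the median of all tested genes under each scaling as a dotted line. Ccr7 stays above and Cx3cr1 below 0 and filled under all 6, while C5ar1 and C3ar1 change their call or sign with the scaling.

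The formyl peptide receptor genes lie beside each other on chromosome 17 and were both near the limit of detection. Fpr1 (17876471 to 17883940, minus strand) had 1.16, 1.06 and 0.364 FPKM in CCL3 replicates 1 to 3 and 0.218, 0.215 and 0.141 FPKM in control replicates 1 to 3. All CCL3 libraries lay above the control libraries, with CCL3 replicate 3 much nearer to control than the other two. The summed fragments were 56 with CCL3 (95% Poisson interval 42.3 to 72.7) and 16 in control (9.15 to 26.0), intervals that cover counting error alone. Its difference of 0.61 on the log2(FPKM + 1) scale had an exact permutation p of 0.1, the smallest that 3 against 3 allows, and in the fit with no filter an adjusted p of 0.0940 (limma), short of the threshold. Fpr2 (17887824 to 17893952, plus strand) had 0.476, 0.674 and 0.213 FPKM in CCL3 replicates 1 to 3 and 0.891, 0.293 and 0.181 FPKM in control replicates 1 to 3. Its groups overlapped fully, with 29 fragments in CCL3 (95% Poisson interval 19.4 to 41.6) and 37 in control (26.1 to 51.0) and an exact permutation p of 0.9. Fpr2 shares 48 of its 1296 exon bases with Fpr3, a close relative that had at most 4 fragments in a library, and the sources used here do not state how shared reads were handled. The Fpr-rs3, Fpr-rs4, Fpr-rs6 and Fpr-rs7 genes of the same family were listed at 0 in all 6 libraries.

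Ordered by mean level, the 9 genes began with Cxcr4, C5ar1, C3ar1, Cx3cr1 and Ccrl2 in both groups. Among CCL3 libraries the ranges of Cxcr4, C5ar1 and C3ar1 overlapped, so that their order was not resolved, and Cx3cr1 lay clearly below them. In control libraries C3ar1 and Cx3cr1 overlapped instead, below Cxcr4 and C5ar1. At the low end, with CCL3, the mean of Ccr7 followed that of Ccrl2; the range of Ccr7 lay above those of Fpr1 and Fpr2 but overlapped that of Ccr2, and Fpr1, Ccr2 and Fpr2 overlapped each other. In control Ccr2 came next to Ccrl2 by mean, and Fpr2 overlapped Ccr2, Ccr7 and Fpr1, so that its place was not resolved. FPKM is per length but is not corrected for GC content, so this order of different genes is approximate.

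Within a library, the share of each gene in the summed FPKM of the 9 does not depend on the library divisor. Cx3cr1 made up 10.6%, 7.03% and 10.5% of this sum in CCL3 replicates 1 to 3, against 13.8%, 13.7% and 16.9% in control replicates 1 to 3. C3ar1 made up 22.8%, 31.4% and 26.0% in CCL3 replicates 1 to 3, against 16.8%, 19.5% and 15.2% in control replicates 1 to 3. For both genes the shares of the groups did not overlap (exact permutation p = 0.1 each, the smallest that 3 against 3 allows and short of the threshold). The small shares of Ccr7 and Fpr1 did not overlap either (exact permutation p = 0.1 each). In FPKM 48.6% of all tested genes were without overlap. The shares are parts of 1 sum, so lower values of some genes raise the shares of others, and C3ar1 overlapped in FPKM. Cxcr4 with 30.3% ± 5.79 in CCL3 and 33.2% ± 8.86 in control (SD, n = 3 each) and C5ar1 with 30.8% ± 5.97 in CCL3 and 32.3% ± 8.94 in control kept overlapping shares (exact permutation p = 0.7 and 0.9).

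**Figure D3:**
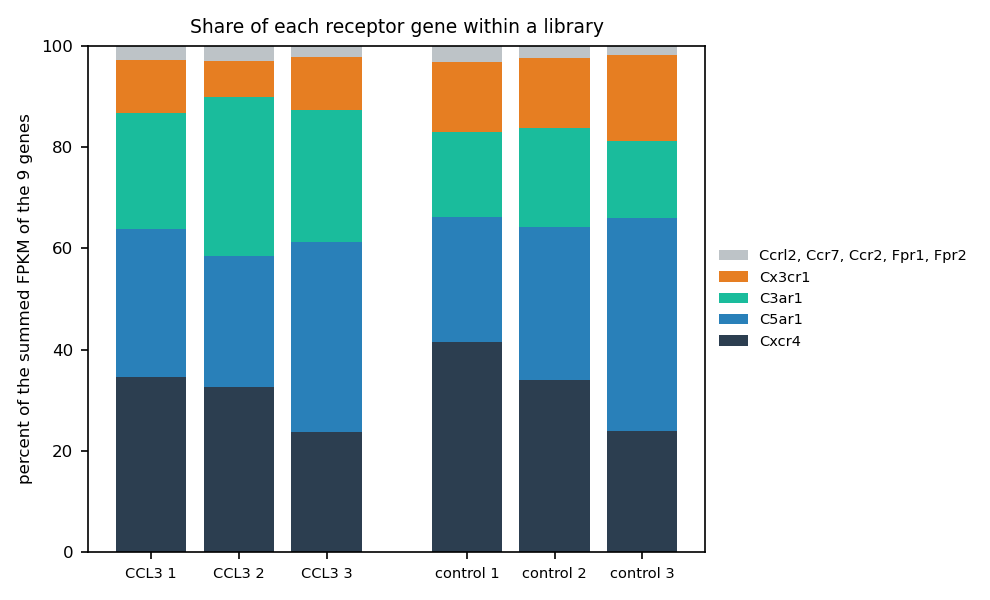
Shares of Cxcr4, C5ar1, C3ar1, Cx3cr1 and the other 5 receptor genes together in the summed FPKM of the 9 (vertical axis, percent) in each CCL3 library (left 3 bars) and control library (right 3 bars). Cx3cr1 takes 7.03% to 10.6% with CCL3 and 13.7% to 16.9% in control, and C3ar1 22.8% to 31.4% with CCL3 and 15.2% to 19.5% in control.

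The genes whose pattern over the 6 libraries was most like Cx3cr1, by the root mean square difference of log2(FPKM + 1) centred on the gene's mean, were Snrnp27 (0.0372), which encodes a splicing factor component, Bicd2 (0.0495), which encodes a dynein adaptor, and the transporter gene Slc16a6 (0.0574). For Ccr7 they were Zfp358 (0.0721), Ninj1 (0.102) and Grina (0.103), with larger distances. Ninj1, which encodes a membrane protein of plasma membrane rupture, had 596, 756 and 632 FPKM in CCL3 replicates 1 to 3 and 370, 312 and 269 FPKM in control replicates 1 to 3, far above the level of Ccr7. The pseudocount of 1 compresses the change of Ccr7, whose ratio of group means was 4.02, but hardly that of Ninj1 (log2 fold change 1.06). Their likeness therefore holds on this scale and not for the ratio of levels.

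Few other chemokine receptor genes were expressed. Of 19 such genes measured, 2 passed the filter, and 0 of them passed the test (limma, with 1 at an unadjusted p under 0.05 and 0 called by limma-voom). Cxcr3, a receptor gene for interferon-induced chemokines, had 7.83 ± 1.15 FPKM with CCL3 and 5.77 ± 1.05 FPKM in control (SD, n = 3 each; log2 fold change 0.39 ± 0.17 SE, limma adjusted p = 0.106). Ccr4, Ccr6, Ccr8 and Ackr2 were listed at 0 in all 6 libraries. In the receptor cluster at the distal end of chromosome 9, where Ccr9, Cxcr6, Xcr1, Ccr1, Ccr1l1, Ccr3 and Ccr2 follow each other in that order, Ccr1 and Ccr2 were the genes among these 7 that reached 1 FPKM in any library. Ccr9, Cxcr6 and Xcr1 stayed below 0.1 FPKM throughout, Ccr1l1 had fragments in 1 library, and Ccr3 had at most 28 fragments in a library, with 0.498 FPKM in CCL3 replicate 2.

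Among other chemoattractant receptor genes, 2 of 11 tested rose and 2 fell, close to the 32.4% of all tested genes called in either direction, with a median log2 fold change of -0.16 beside 0.01 over all genes. Cmklr1, a chemerin receptor gene like Ccrl2, rose to 5.19 ± 0.960 FPKM with CCL3, against 1.70 ± 0.421 FPKM in control (SD, n = 3 each), a log2 fold change of 1.20 ± 0.18 SE (limma adjusted p = 0.00438). S1pr1, the sphingosine-1-phosphate receptor gene that promotes exit from tissues in lymphocytes, fell to 6.82 ± 0.869 FPKM with CCL3, against 14.2 ± 0.840 FPKM in control (log2 fold change -0.97 ± 0.14 SE, limma adjusted p = 0.00387). S1pr2 rose by 0.51 ± 0.14 SE (limma adjusted p = 0.0236), which was lost with TPM, plain totals and quantile normalization (adjusted p = 0.988, 0.341 and 0.139), and its sign turned with TPM (log2 fold change -0.0038). With TPM 1 of the 11 rose and 6 fell, and with plain totals 1 rose and 4 fell.

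Among genes for ligands of the 9 receptors, 1 of 6 tested rose and 1 fell, against 18.0% and 14.5% of all genes tested. Ccl7, a CCR2 ligand gene, fell to 0.130 ± 0.115 FPKM with CCL3, against 1.89 ± 0.791 FPKM in control (SD, n = 3 each; log2 fold change -1.33 ± 0.21 SE, limma adjusted p = 0.00488). Ccl7 passed the filter through the control group alone, where it was high. Saa3, a gene of the serum amyloid A family whose members can act on FPR2, rose, with 3.72, 5.72 and 4.02 FPKM in CCL3 replicates 1 to 3 and 2.27, 1.35 and 0.269 FPKM in control replicates 1 to 3 (log2 fold change 1.34 ± 0.33 SE, limma adjusted p = 0.0182). Both kept their call under the 5 other scalings. Ccl2, the principal CCR2 ligand gene, was outside the naming rule and had 0.379, 1.07 and 1.03 FPKM in CCL3 replicates 1 to 3 and 1.61, 3.22 and 14.2 FPKM in control replicates 1 to 3. Its groups did not overlap, but control replicate 3 dominated the mean and the adjusted p was 0.0597 (limma). Ccl2 was called lower with TPM and plain totals (log2 fold change -2.40 and -1.84, limma adjusted p = 0.0107 and 0.0309). It was not called with median-ratio scaling, quantile normalization or the GC and length correction. The genes of the CCR7 ligands, Ccl19 and Ccl21a, and of complement C5, Hc, were listed at 0 in all 6 libraries, while Cx3cl1 had 0.643 to 0.719 FPKM with CCL3 and 0.399 to 0.563 FPKM in control.

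**Figure D4:**
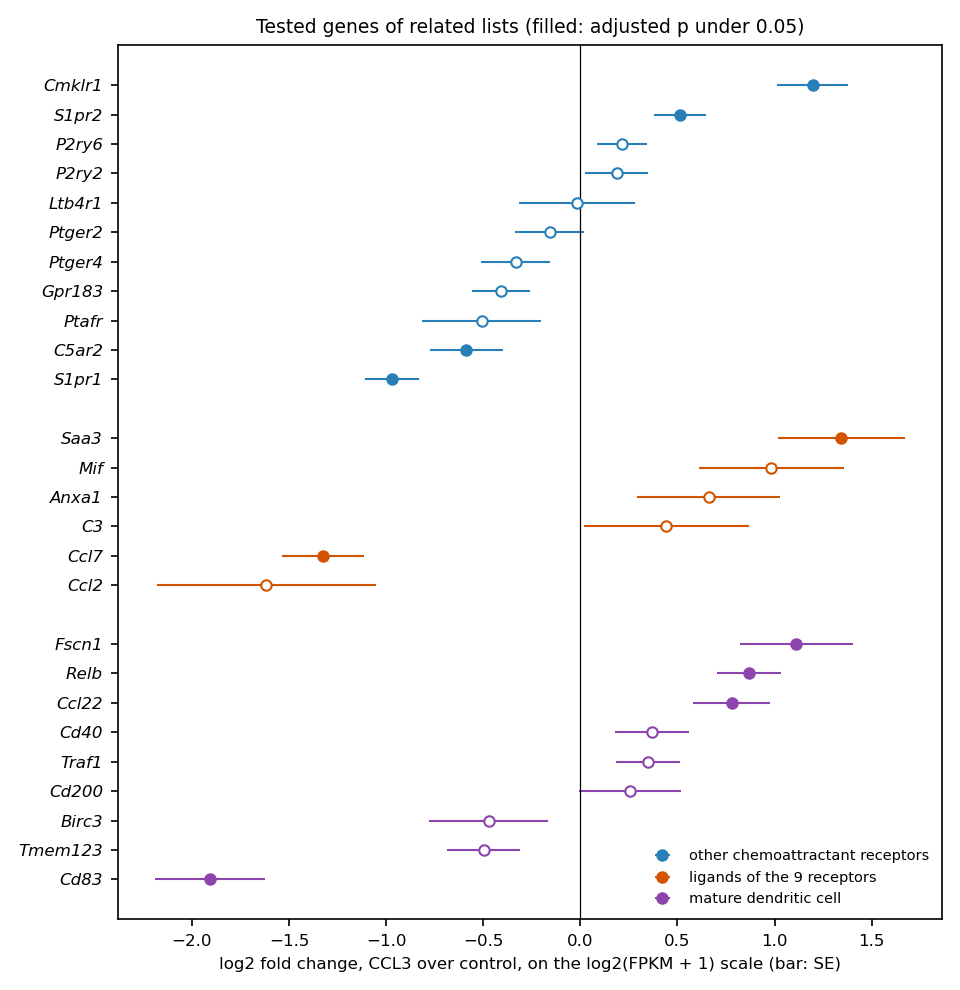
Log2 fold change of CCL3 over control with its SE (horizontal axis, log2(FPKM + 1) scale) for the tested genes of 3 related lists (other chemoattractant receptors, ligands of the 9 receptors, mature dendritic cell genes), filled where the limma adjusted p was under 0.05. Cmklr1, Saa3, Fscn1, Relb and Ccl22 lie right of 0, and S1pr1, C5ar2, Ccl7 and Cd83 left of it, and S1pr2, right of 0 here, had the opposite sign with TPM.

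Of 27 tested genes for G proteins, their regulators, receptor kinases, arrestins and downstream enzymes, 4 rose and 2 fell. Over all genes tested 18.0% rose and 14.5% fell. The median log2 fold change of the 27 was -0.06. The gamma subunit genes Gng5 and Gng2 went opposite ways, with log2 fold changes of 0.64 ± 0.13 SE and -0.83 ± 0.17 SE (limma adjusted p = 0.00885 and 0.00948). The GTPase gene Rac2 (0.71 ± 0.15 SE) and the beta subunit gene Gnb2 (0.80 ± 0.17 SE) rose, but with TPM and plain totals 0 genes of this list rose while 15 and 9 fell.

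Markers of other cell types in which Ccr7 or Cx3cr1 is known were counted beside them. Of 9 tested genes of mature dendritic cells, a cell type in which CCR7 is a defining receptor, 3 rose, Fscn1, Relb and Ccl22, and 1 fell, Cd83, with log2 fold changes of 1.11, 0.87, 0.78 and -1.91 (limma adjusted p = 0.0231, 0.00815, 0.0213 and 0.00423). Ccl22 passed the filter through the CCL3 group alone, and these counts are to be read against the 18.0% of all tested genes that rose and the 14.5% that fell. With TPM 0 of the 9 rose and 3 fell, and after the GC and length correction 1 rose and 1 fell. The summed level of that list was 45.2 to 57.9 FPKM with CCL3 and 45.4 to 74.3 FPKM in control. Of the general dendritic cell list 4 of 14 genes were tested: Bst2 and Batf3 rose, Cd24a fell, and its sum was 411 to 518 FPKM with CCL3 and 241 to 308 FPKM in control, carried by Bst2, which macrophages also express. Bst2 did not pass with TPM or quantile normalization, nor Batf3 after the GC and length correction. The lineage-defining genes Zbtb46, Clec9a and Xcr1 stayed below 0.1 FPKM in every library, and Flt3 had 0.0848 to 0.179 FPKM with CCL3 and 0.164 to 0.246 FPKM in control. The part of a change in cell types in the Ccr7 difference was not tested, and in bulk RNA fewer cells of a type and less RNA per cell cannot be told apart.

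Beside the difference in Cx3cr1, 1 of 8 tested non-classical monocyte genes fell, the integrin gene Itgal (-0.70 ± 0.23 SE, limma adjusted p = 0.0493), and 0 rose, with a summed level of 80.5 to 123 FPKM with CCL3 and 131 to 154 FPKM in control. With TPM 4 of the 8 fell and with plain totals 2. After the GC and length correction Itgal did not pass (limma adjusted p = 0.0575), but 2 others of the 8 fell, Klf2 and Nr4a1. Their log2 fold changes there were -1.19 and -0.57 (limma adjusted p = 0.0189 and 0.0294). Of 3 tested classical monocyte genes, Hp rose (3.61 FPKM with CCL3, 1.27 FPKM in control), Fn1 rose (log2 fold change 0.61) and Plac8, which passed the filter through the control group alone, fell (0.499 FPKM with CCL3, 1.68 FPKM in control), and the list summed to 7.24 to 11.1 FPKM with CCL3 and 5.67 to 8.79 FPKM in control. Fn1 did not pass with TPM or plain totals (adjusted p = 0.226 and 0.119), nor Hp after the GC and length correction (adjusted p = 0.166). Ly6c2, the defining gene of that cell type, had 0.225 to 0.297 FPKM with CCL3 and 0.607 to 0.922 FPKM in control, and Vcan stayed below 0.1 FPKM in every library. The neutrophil list, relevant to the formyl peptide receptors, had 1 rise and 1 fall among 5 tested genes and a sum of 61.4 to 73.4 FPKM with CCL3 and 32.6 to 67.7 FPKM in control, with Ly6g at 0 in all 6 libraries. Proliferation genes rose in 3 of 10 cases, with a sum of 228 to 502 FPKM with CCL3 and 108 to 335 FPKM in control. Among further lists, 4 of 12 macrophage genes rose, Trem2, Spi1, Cd68 and Lgals3 (log2 fold changes 0.98, 0.70, 0.54 and 0.53, limma adjusted p = 0.00327, 0.00739, 0.0185 and 0.0491). The 2 that fell were Cd14 and Lyz2 (-0.94 and -0.91, limma adjusted p = 0.00783 and 0.0339). In the remaining lists 2 of 2 tested fibroblast genes and 1 of 1 tested T and NK cell genes rose. Of the tested B cell genes 0 of 2 passed (limma, 0 at an unadjusted p under 0.05 and 0 by limma-voom), and 0 mast cell genes reached the filter. With TPM 1 macrophage gene rose and 5 fell, with quantile normalization 0 rose and 3 fell, and the fibroblast and the T and NK cell lists had 0 rises with TPM and with plain totals. The T and NK cell gene was Cd4, which also did not pass with median-ratio scaling or the GC and length correction (limma adjusted p = 0.0502 and 0.0601). Cd3g, Cd8a and Ncr1 were at 0 in all 6 libraries, and Cd3d, Cd3e, Trac and Nkg7 stayed below 0.1 FPKM in every library. The counts of the cell type lists are to be read against the 18.0% of all tested genes that rose and the 14.5% that fell. The part of these cell types in the receptor differences was not tested.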

How the data were processed

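Messenger RNA libraries of 3 CCL3-treated and 3 control macrophage samples had been built with a SMARTer kit from total RNA, per the labels' protocols. The authors deposited FPKM values for 54532 genes on mm10, per the submitters' processing notes. The sources used here do not state the aligner, the counter, strand use, how shared reads were handled or the library divisor. Gene lengths of the 9 receptors equalled the exon unions of GENCODE M21. Multiplying FPKM by gene length and dividing by the smallest step of a library gave whole fragments (within 0.02) for 100% of values. Their sum was 0.851 to 1.20 times the authors' divisor, lower in control. Chi-square per degree of freedom between replicates was 19.6 to 89.7, so no libraries were merged.

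Genes whose mean reached 1 FPKM were tested with limma 3.58.1 (R 4.3.3) on log2(FPKM + 1), with a variance trend, two-sided, adjusted over 9218 genes. Fold changes on this scale understate the change of low genes. Genes below the filter were compared by exact permutation. Motifs were searched with Python 3.11.15. All 9 genes were named. Of most lists up to 4 called genes were named by smallest p, or up to 2 by level where none passed. Every called macrophage gene was named, while the called neutrophil, proliferation and fibroblast genes were only counted. Some further genes, among them Csf1r, Ly6c2 and Flt3, were named outside this rule. The receptor genes and lists were chosen with earlier results of these data known. The fit was tested on simulated data for the CCL3 comparison (9215 genes tested): it recovered 80.6% of 2-fold and 26.9% of 1.5-fold changes, and 5.63% of its calls fell on unchanged genes. The simulation changed 67 genes by 1.5-fold, 67 by 2-fold and 66 by 4-fold, and drew libraries independently with the same dispersion for every gene. In the data 32.4% of tested genes were called and replicates differed in structured ways, so these rates need not hold for them. Other scalings, filters, pseudocounts, limma-voom, a replicate block and leaving out libraries were tried as alternatives. Some genes of the lists are not reported here.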

Additional observations from a re-analysis of the deposited data

How the results depend on the processing

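The rise of Ccr7 and the fall of Cx3cr1 kept direction and call in every alternative in which they were tested; Ccr7 enters a test only where its CCL3 libraries lift it over the filter, or with no filter. Over all genes 1655 were higher and 1335 lower. With TPM scaling the counts were 507 and 3986, with plain totals 803 and 3047. Leaving out 1 library gave 689 (without control replicate 2) to 1865 (without control replicate 3) higher and 439 to 1277 lower. With the gene set held fixed, the counts were 1100 and 812 without CCL3 replicate 3, 981 and 676 without control replicate 1, and 696 and 456 without control replicate 2. Among the receptor genes 1 was higher and 1 lower. The higher count was 2 with the replicate block and with the GC and length correction, both through C3ar1 (adjusted p = 0.0215 and 0.0289), and 0 to 1 without 1 library, since Ccr7 drops under the filter without any 1 CCL3 library. The lower count was 2 with TPM scaling, plain totals and quantile normalization, through C5ar1, and 1 without any 1 library. The replicate block gave 3897 calls in place of 2990. Same-numbered libraries deviated with correlations of -0.063, 0.39 and 0.50, and not every library correlated best with its own number. The sources used here state no pairing, so whether the numbers pair the libraries was not resolved. The GC and length correction and the fits with a fixed gene set were chosen after the data had been seen.

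Signs turned for values that had not passed. Cxcr4 ranged from -0.55 to 0.0093 without 1 library, above 0 without CCL3 replicate 3, and C3ar1 was -0.066 with TPM scaling. Fpr2, at 0.018, became -0.19 with TPM scaling and -0.076 with plain totals, and ranged from -0.12 to 0.22 without 1 library. The cause was not tested. Depth limits Fpr1, Fpr2 and Ccr7, which had at most 25, 24 and 64 fragments in a library.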
